A study of Mus musculus with 2 samples.

Results

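The genes described here encode the ligands and receptors that steer growing axons, and they were read in whole limb buds of Bhlha9 knockout and wild-type mouse embryos at E10.5. Members were chosen by symbol: the semaphorins, plexins, neuropilins, Slits, Robos, netrins and netrin-G proteins, Unc5 receptors, Dcc, neogenin, Eph receptors, ephrins, Rgma, Rgmb and reelin. The rule found 74 genes, read by 171 probe sets, of 18193 genes with a probe set that carries a single symbol. Ephb2, which the rule also covers, was not analysed here.

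The knockout group was 1 array of limb bud RNA from embryos lacking Bhlha9, a basic helix-loop-helix transcription factor gene, and the wild-type group was 1 array of the same tissue and stage. Both groups were of the C57BL/6 strain, and 200 ng of total RNA was labelled for each Affymetrix Mouse Genome 430 2.0 array. The sources used here do not give how the allele was made, how many embryos gave each RNA or whether fore- and hindlimb buds were mixed. The comparison asks which limb bud transcripts differ without Bhlha9, and with 1 array per genotype it allows no test, so "higher" and "lower" refer to this pair of arrays.

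Guidance cues are proteins that attract or repel the growth cone at the tip of an axon. Semaphorins act on plexins, with neuropilins as partners for the secreted class, Slits act on Robos, netrins on Dcc and Unc5 receptors, and ephrins on Eph receptors, while reelin is a secreted matrix protein read by lipoprotein receptors. None of these families is restricted to neurons. In the limb bud, mesenchyme makes several of the cues that sort motor axons into dorsal and ventral paths, and blood vessels and migrating muscle precursors use the same receptors.

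Signals are intensities on a linear scale summarised with MAS 5.0, 1 per probe set, and each gene was read from its brightest probe set. A signal under the 40th percentile of an array, 41.8 on the knockout and 41.2 on the wild-type array, was treated as not detected and raised to that floor. Log2 ratios are of knockout over wild-type signal, and where 1 array was under the floor it is a bound. Measurement error was read from how far the 2 brightest probe sets disagreed in 5440 genes, giving an SD of 0.28 for 1 log2 ratio. That SD was 0.39 where the dimmer probe set lay under a signal of 362 and 0.20 where it lay above. This error leaves out differences between embryos and dissections, and precision is limited by having 2 arrays.

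The arrays differed in marker genes of limb mesenchyme and of several other tissues. The probe set for Bhlha9 gave 1.70 on the knockout and 7.87 on the wild-type array, both under the floor, so it does not check the labels. Limb mesenchyme markers were detected on both arrays for 10 of 10 genes, with a summed signal of 17705 on the knockout and 33081 on the wild-type array, and 6 of them were at least 2-fold lower. These markers differed among themselves, with log2 ratios from -1.92 for Lmx1b to -0.33 for Prrx1 and -0.03 for Hoxd13. Neuron markers summed to 3113 on the knockout and 1021 on the wild-type array, and 7 of 8 passed 2-fold upward. Neural tube progenitor markers summed to 4942 and 1952 in the same order, with 6 of 10 at least 2-fold higher. Detected on the knockout array alone were 2 neuron and 5 progenitor markers, whose direction is fixed by that. Of all genes detected on at least 1 array, 4.15% passed 2-fold upward and 2.65% downward. Embryonic liver markers, with 8 of 10 not detected in wild-type tissue, summed to 34118 on the knockout and 359 on the wild-type array. Muscle and somite markers summed to 4545 and 2028, ectoderm markers to 9240 and 5415, and endothelial markers to 4164 and 5161, knockout first. Neural crest and glia markers, 4 of 7 of which had a probe set with a single symbol, summed to 764 on the knockout and 643 on the wild-type array. Only Erbb3 of these read higher on the knockout array, at 470 against 199. The median log2 ratio was -0.57 over the 3 detected on both arrays. The part of these tissues in the results that follow was not tested, and genotype and tissue content cannot be told apart with 1 array each. More cells of a type and more RNA per cell cannot be told apart either.

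Guidance genes lay on both sides of zero, with the larger ratios among those higher on the knockout array and the larger number among those lower. Of the 62 members detected on both arrays, 5 were at least 2-fold higher, or 8.06%, against 2.87% of all 11491 genes detected on both. At least 2-fold lower were 10 members, or 16.1%, against 2.51% of all genes. The median log2 ratio of these 62 members was -0.09, against -0.01 for all genes, and 26 ratios were positive and 36 negative, while 49.1% of all genes were positive and 50.9% negative. After quantile or loess normalization, the members at least 2-fold apart, bounds included, numbered 8 higher and 8 lower, against 7 higher and 11 lower with the deposited scaling. A further 3 members were detected on the knockout array alone and 3 on the wild-type array alone, among them Dcc and Sema5b at least 2-fold higher and Plxnb3 at least 2-fold lower. Their direction is fixed by how they were detected, and the background with such genes included was 4.15% of 13088 genes higher and 2.65% lower. Under the floor on both arrays were 6 members, Ntn3, Ntn5, Ntng2, Unc5a, Unc5d and Epha6.

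**Figure D1:**
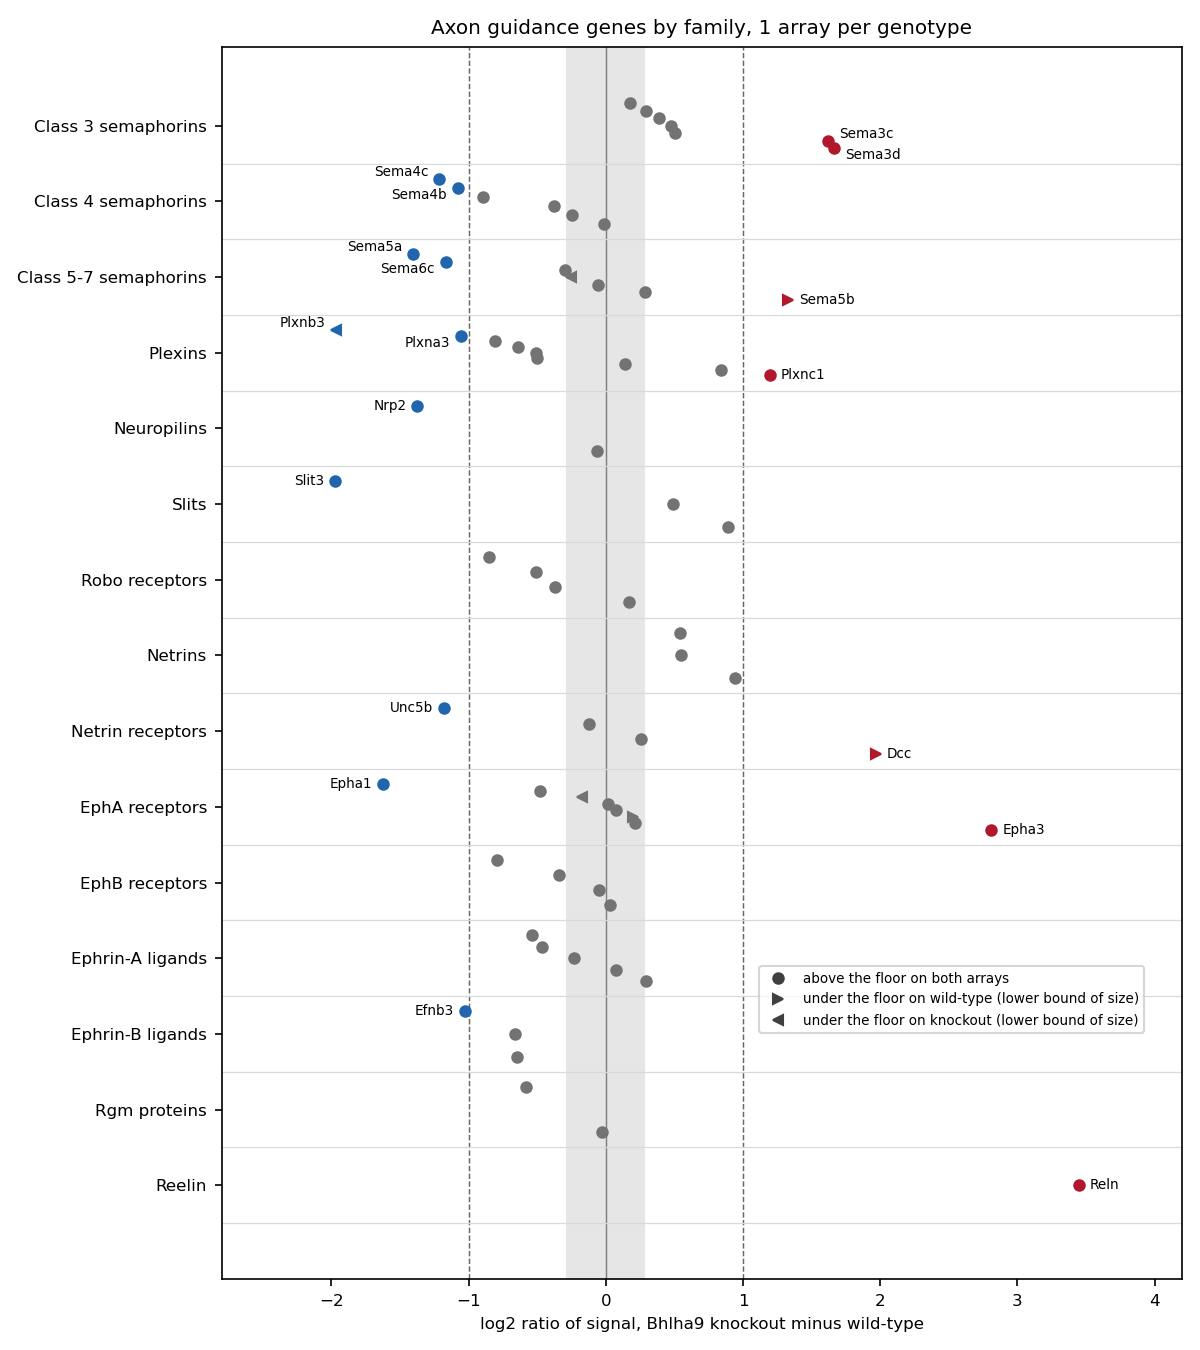
Log2 ratio of signal, knockout minus wild-type, on the horizontal axis, for the 68 members detected on at least 1 array, grouped by family down the page; dashed lines mark 2-fold, the grey band 1 SD of measurement error (0.28), and triangles are bounds. Reln and Epha3 stand farthest to the right, at 3.45 and 2.81, and Slit3 farthest to the left, at -1.97.

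The 18 members at least 2-fold apart were Reln, Epha3, Dcc, Sema3d, Sema3c, Sema5b and Plxnc1 on the higher side. On the lower side they were Slit3, Plxnb3, Epha1, Sema5a, Nrp2, Sema4c, Unc5b, Sema6c, Sema4b, Plxna3 and Efnb3. Of these, 9 had a further detected probe set, and for 6 of the 9 (Epha3, Plxnc1, Plxna3, Nrp2, Unc5b and Sema5a) every further one lay beyond 1 SD on the same side. The exceptions were Dcc, Sema5b and Plxnb3, described with their families.

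The promoters of 4 of these genes are shown because they carry the largest ratios detected on both arrays on each side, Reln and Epha3 higher and Slit3 lower, together with Nrp2, the lower gene with the most detected probe sets. Each window runs from 250 bases before to 50 bases after the RefSeq start, 5′ to 3′ on the gene's strand, on build GRCm38.p6. Capitals mark CANNTG, the E-box core that basic helix-loop-helix proteins bind, which reads the same on both strands.
Reln, chr5:22344656-22344955, minus strand: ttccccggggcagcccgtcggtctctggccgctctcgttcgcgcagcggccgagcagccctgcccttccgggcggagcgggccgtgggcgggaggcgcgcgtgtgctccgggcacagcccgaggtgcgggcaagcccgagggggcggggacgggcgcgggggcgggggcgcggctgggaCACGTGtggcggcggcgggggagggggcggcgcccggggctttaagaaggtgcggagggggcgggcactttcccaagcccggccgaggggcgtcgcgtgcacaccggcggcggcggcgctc
Epha3, chr16:63864126-63864425, minus strand: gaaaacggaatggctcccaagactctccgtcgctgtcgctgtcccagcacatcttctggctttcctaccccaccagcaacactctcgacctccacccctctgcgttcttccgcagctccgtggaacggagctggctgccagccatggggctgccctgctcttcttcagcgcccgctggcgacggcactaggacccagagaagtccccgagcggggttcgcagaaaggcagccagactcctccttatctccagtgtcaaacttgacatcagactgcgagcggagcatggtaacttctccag
Slit3, chr11:35121206-35121505, plus strand: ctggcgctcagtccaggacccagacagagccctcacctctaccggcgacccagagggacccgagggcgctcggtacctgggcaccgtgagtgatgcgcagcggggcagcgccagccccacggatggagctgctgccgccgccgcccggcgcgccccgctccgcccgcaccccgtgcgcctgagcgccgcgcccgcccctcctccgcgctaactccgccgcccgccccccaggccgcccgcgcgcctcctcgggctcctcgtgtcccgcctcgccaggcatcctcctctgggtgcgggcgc
Nrp2, chr1:62703067-62703366, plus strand: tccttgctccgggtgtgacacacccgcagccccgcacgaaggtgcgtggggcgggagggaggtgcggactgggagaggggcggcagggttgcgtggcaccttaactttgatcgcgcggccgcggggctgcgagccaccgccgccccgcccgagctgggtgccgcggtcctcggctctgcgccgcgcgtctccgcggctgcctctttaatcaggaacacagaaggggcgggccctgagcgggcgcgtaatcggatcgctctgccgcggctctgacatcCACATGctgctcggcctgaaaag
The Reln and Nrp2 windows each hold 1 CANNTG match, and the Epha3 and Slit3 windows hold 0. Their GC content was 80.7%, 60.7%, 78.3% and 70.7% for Reln, Epha3, Slit3 and Nrp2. RefSeq windows were found for 63 of the 74 members, and 31 of them, or 49.2%, hold the motif, against 72.3% of all 32851 windows. It was present in 4 of the 6 windows of members at least 2-fold higher and in 4 of the 10 of members at least 2-fold lower. CAGCTG, which is a form of CANNTG, was present in 14.3% of member windows and 16.3% of all windows. A match is a run of letters and does not show binding.

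Reelin gave the largest ratio of any member. Reln, the secreted protein that positions migrating neurons in the brain, read 1241 on the knockout array and 114 on the wild-type array, a log2 ratio of 3.45, or 10.9-fold higher. Its other probe set lay below either floor, at 23.1 and 11.2, so the ratio rests on 1 probe set. Of 3 genes of the reelin response, Vldlr and Lrp8 were within the error. Dab1 was lower by more than the SD of 0.28 over all genes. It lay within the SD of 0.39 that applies to dim probe sets. The receptor gene Vldlr read 381 and 379, the receptor gene Lrp8 232 and 238, and the adaptor gene Dab1 67.5 and 87.1, knockout first. Their log2 ratios were 0.01, -0.03 and -0.37.

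Among the semaphorins, the secreted class 3 genes and the membrane-bound class 4 genes lay on opposite sides of zero. This grouping by class was made after the values were seen. All 7 class 3 genes were detected on both arrays with positive ratios, median 0.48 and range 0.18 to 1.66. All 7 stayed positive under median centring, quantile normalization and loess, whereas 6 of 7 were positive when all probe sets were averaged and 5 of 6 with plain probe sets only. All 6 class 4 genes had negative ratios, median -0.64 and range -1.21 to -0.01, and under each of the 3 scalings 1 of them, Sema4f, turned just positive.

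The class 3 genes at the top were Sema3d and Sema3c. Sema3c, which guides neural crest cells into the outflow tract of the heart, read 1071 on the knockout array and 348 on the wild-type array, a log2 ratio of 1.62. Sema3d read 445 on the knockout array and 140.5 on the wild-type array, a ratio of 1.66. Each was thus about 3-fold higher on the knockout array, 3.08-fold for Sema3c and 3.17-fold for Sema3d, by 1 detected probe set each. Sema3a, the classical repellent of sensory and motor axons that also controls when they enter the limb, had a ratio of 0.51, from 1070 on the knockout and 754 on the wild-type array. Its other 2 detected probe sets gave 0.93 and a bound of 0.50, so all 3 lay above the error. Sema3f, the repellent read through Nrp2, differed by less than the error, at 406 on the knockout and 358.5 on the wild-type array, and its further probe sets gave 0.13 and -0.39. Sema3e, a cue for plexin-D1 on vessels, had a ratio of 0.48, and Sema3b and Sema3g had 0.30 and 0.39 at signals under 100.

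The class 4 genes at the bottom were Sema4c and Sema4b. Sema4c, a membrane ligand of plexin-B2, read 316 on the knockout array and 733 on the wild-type array, a log2 ratio of -1.21. Sema4b read 120 on the knockout and 253 on the wild-type array, a ratio of -1.08. Sema4g was just short of 2-fold lower, with 115 against 214 and a ratio of -0.89. The remaining class 4 ratios ran from -0.38 for Sema4d to -0.01 for Sema4f.

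The class 5 to 7 semaphorins lay on both sides of zero. Sema5a, which carries thrombospondin repeats beside its semaphorin domain, read 461 on the knockout array and 1219 on the wild-type array, a ratio of -1.40, and its next probe set gave -0.79. Its relative Sema5b read 103 on the knockout array against 39.0 in wild-type, which is under the floor, so it was higher by at least 2.51-fold. A further Sema5b probe set gave the opposite, with 9.84 on the knockout and 64.0 on the wild-type array, so the 2 probe sets contradict each other. Sema6c was lower, at 52.7 against 118, a ratio of -1.17 close to the floor. Sema6a stood at 0.29 by its brightest probe set, with bounds of -0.53 and 0.24 by its other 2. Sema6b read 10.0 on the knockout array, under the floor, and 49.7 on the wild-type array. Sema6d and Sema7a had ratios of -0.06 and -0.30.

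Of the 11 plexin and neuropilin genes, the receptors of the semaphorins, 8 had negative ratios. Nrp2, the neuropilin that reads Sema3f and Sema3c, was lower by every one of its 4 probe sets. They read 754, 717, 417 and 206 on the knockout array, against 1952, 1675, 680 and 383 on the wild-type array, with log2 ratios of -1.37, -1.22, -0.71 and -0.89. Nrp1, the neuropilin that reads Sema3a and also binds vascular endothelial growth factor, was nearer to zero. Its brightest probe set read 3047 on the knockout and 3185 on the wild-type array, a ratio of -0.06, and its other 3 gave -0.62, -0.51 and -0.25. All 8 neuropilin probe sets were therefore lower on the knockout array, by amounts that differed within Nrp1 by more than 1 SD of error.

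**Figure D2:**
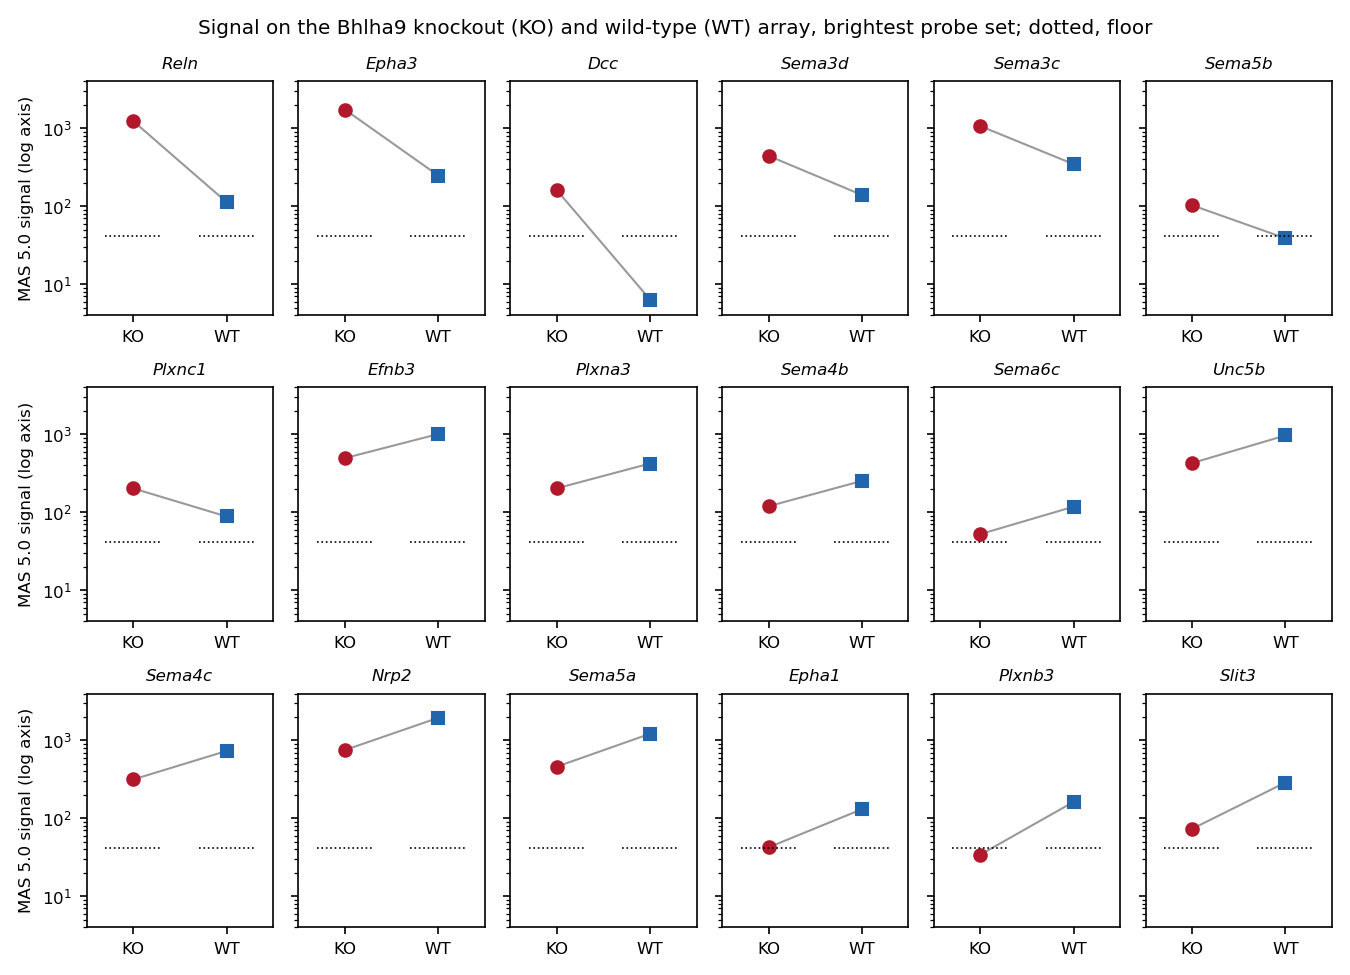
MAS 5.0 signal of the brightest probe set, on a log axis, for the 18 members at least 2-fold apart, 1 per panel, with the knockout array (KO, red circle) left of the wild-type array (WT, blue square), and dotted lines mark the floor of each array. Dcc and Sema5b on the wild-type array and Plxnb3 on the knockout array lie under the floor.

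Plexins, the signalling receptors for semaphorins, had a median log2 ratio of -0.50 over the 8 genes detected on both arrays, with 3 positive and 5 negative. Plxnb3, a receptor for Sema5a, was at least 3.90-fold lower, with 34.3 on the knockout array, under the floor, and 163 on the wild-type array. Its other probe set read 3.35 on the knockout and 45.5 on the wild-type array, close to its floor, and gave a bound of -0.12. The plexin-B genes detected on both arrays ran the same way, with ratios of -0.81 for Plxnb2, at 786 and 1376, and -0.50 for Plxnb1, at 524 and 740, knockout first. Among plexin-A genes, which pair with neuropilins, Plxna3 read 204 on the knockout and 424 on the wild-type array, a ratio of -1.06, with -1.16 by its dimmer probe set. Plxna1 had a ratio of -0.64. Plxna2 went the other way by all 4 of its probe sets, with 710 on the knockout and 396 on the wild-type array by the brightest, and ratios from 0.60 to 1.34. Plxnc1, the receptor for Sema7a, was also higher, at 203 against 88.7, a ratio of 1.20, with 0.71 by its next probe set. Plxnd1, the vascular receptor for Sema3e, was at -0.51, beside endothelial markers whose median was -0.47 over the 6 detected on both arrays. Plxna4 was within the error at 0.14, from signals of 58.0 and 52.7.

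The 3 Slits lay on both sides of zero. Slit3 read 73.5 on the knockout array and 289 on the wild-type array, a log2 ratio of -1.97, or 3.92-fold lower, by its only probe set. Slit2, a midline repellent, was higher on the knockout array, at 1345 against 726, a ratio of 0.89. Its further probe sets gave 0.96 and a bound of 0.63, so all 3 lay above the error. Slit1 had a ratio of 0.49 at signals under 100, 86.5 on the knockout and 61.5 on the wild-type array.

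No Robo gene was 2-fold apart. Robo1 and Robo2, the main Slit receptors of axons, had ratios of 0.17 and -0.37, from 1752 and 448 on the knockout array against 1555 and 578 on the wild-type array. Robo4, the endothelial member, was lower at 153 against 218, a ratio of -0.51. Robo3, known from commissural axons, had a ratio of -0.85 near the floor, at 45.5 against 82.3.

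Netrins were higher on the knockout array where they were detected, while their receptors split. Ntn1, the attractant of commissural axons, read 587 on the knockout and 404 on the wild-type array, a ratio of 0.54. Ntn4, a netrin of basement membranes, read 152 and 79.0 in the same order, a ratio of 0.94. For Ntng1, a membrane-anchored netrin-G, the 2 detected probe sets gave 0.55 and 0.95. Ntn1 and Ntn4 each rest on 1 of 2 probe sets, as the other was undetected on both arrays. The 3 ratios were positive under each of the 3 scalings, with medians from 0.59 to 0.68 against 0.55 as deposited. With the floor at the 60th percentile, only Ntn1 was still detected on both arrays, and Ntng1 stood at -0.07.

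Dcc, the receptor that turns netrin into an attractant, was read by 3 probe sets that disagreed. The brightest pair read 161 and 128 on the knockout array against 6.38 and 5.34, both undetected, on the wild-type array. By the brightest, the difference was at least 3.92-fold. The remaining probe set was near the floor on both arrays, at 48.3 and 55.7, a ratio of -0.21. Dcc is mainly a neuronal gene, and the neuron markers Tubb3, Stmn2, Nefl and Nefm were 4.81-fold, 6.14-fold, 7.91-fold and 6.49-fold higher on the same array, while the neuronal gene Dcx had a log2 ratio of -0.54. What part those cells have in the Dcc signal was not tested.

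Unc5b, the netrin receptor of endothelium, was lower by both of its probe sets. It read 429 and 335 on the knockout array, against 970 and 772 on the wild-type array, with log2 ratios of -1.18 and -1.21. Of 7 endothelial markers, Kdr and Tie1 were 2.12-fold and at least 2.69-fold lower and 0 passed 2-fold upward. Among all detected genes, 2.65% passed 2-fold downward and 4.15% upward. The log2 ratios of the other 5 were -0.71 for Pecam1, -0.69 for Cdh5, -0.24 for Cldn5, -0.10 for Tek and 0.44 for Emcn. What part endothelium has in the Unc5b signal was not tested. Unc5c, a repulsive netrin receptor, had ratios of 0.26 and 0.62, from 670 and 393 on the knockout array against 560 and 256 on the wild-type array. Neo1, the receptor shared by netrins and Rgm proteins, had 5 detected probe sets that lay on both sides of zero, from -0.91 to 0.36, with 1838 and 2000 by the brightest. Rgma and Rgmb, the membrane-anchored ligands of neogenin, had ratios of -0.58 and -0.03, and the 5 detected Rgmb probe sets ran from -0.46 to 0.93.

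Eph receptors, the largest family of receptor tyrosine kinases, gave 1 large ratio among many small ones. Epha3 read 1742 on the knockout array and 248 on the wild-type array, a log2 ratio of 2.81, or 7.01-fold higher. A second probe set read 705 and 151, a ratio of 2.22, and another read 89.1 on the knockout array against an undetected 3.59 in wild-type, a difference of at least 2.16-fold. All 3 detected probe sets of Epha3 thus passed 2-fold in the same direction. Epha1, the first Eph receptor described and one expressed in epithelium, was lower, at 42.6 on the knockout array, just above the floor, and 131 on the wild-type array, a ratio of -1.62. This was the only detected one of its 3 probe sets. Of 8 ectoderm markers, 5 were past 2-fold upward and 0 downward, against 4.15% and 2.65% of all detected genes, and Krt8 was at -0.11. What part ectoderm has in the Epha1 signal was not tested.

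The Eph receptors best known from the limb were within the error by their brightest probe set, but not by every other one. Epha4, which sends lateral motor axons into the dorsal limb, read 1515 on the knockout and 1501 on the wild-type array by its brightest probe set, a ratio of 0.01. Its other 3 probe sets detected on both arrays gave -0.72, -0.32 and -0.94, each lower by more than the SD of 0.28 over all genes. A further one, detected on the wild-type array alone, gave a bound of -0.06. Epha7, a receptor of limb mesenchyme, read 1763 and 1521, a ratio of 0.21, and 0.63, -0.23 and 0.71 by its others. Epha2 was at -0.48 and Epha5 at 0.08, while Epha8 and Epha10 were detected near the floor on 1 array each. The EphB receptors, which read ephrin-B ligands, ranged from -0.80 for Ephb6 to 0.03 for Ephb3, with Ephb4 at -0.34 and Ephb1 at -0.05.

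The ephrin-B ligands were all lower on the knockout array, under the deposited scaling and under each of the 3 others. Efnb3, a midline barrier in the spinal cord, read 498 on the knockout and 1012 on the wild-type array, a ratio of -1.02, the smallest size past 2-fold. Efnb2, which marks arteries and is made in dorsal limb mesenchyme, read 2482 and 3884 by its brightest probe set, a ratio of -0.65, with -0.61 and -0.76 by the next ones and a bound of 0.09 by the dimmest. Efnb1 read 625 and 988, a ratio of -0.66, and its further probe sets gave -1.38 and 0.02. Their median was -0.66, beside limb mesenchyme markers at -1.15.

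The ephrin-A ligands, which are anchored by a lipid and read by EphA receptors, included no gene 2-fold apart by its brightest probe set. Efna5, a ventral limb cue for lateral motor axons, read 974 on the knockout and 925 on the wild-type array, a ratio of 0.08. Efna2 read 1178 and 1386, a ratio of -0.23, but its other probe set gave -1.12, from 157 on the knockout and 341 on the wild-type array. Efna4 was at -0.54 and Efna3 at 0.29, and the pair of Efna1 probe sets gave -0.46 and 0.28. The EphA receptors and ephrin-A ligands detected on both arrays had medians of 0.04 and -0.23.

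**Figure D3:**
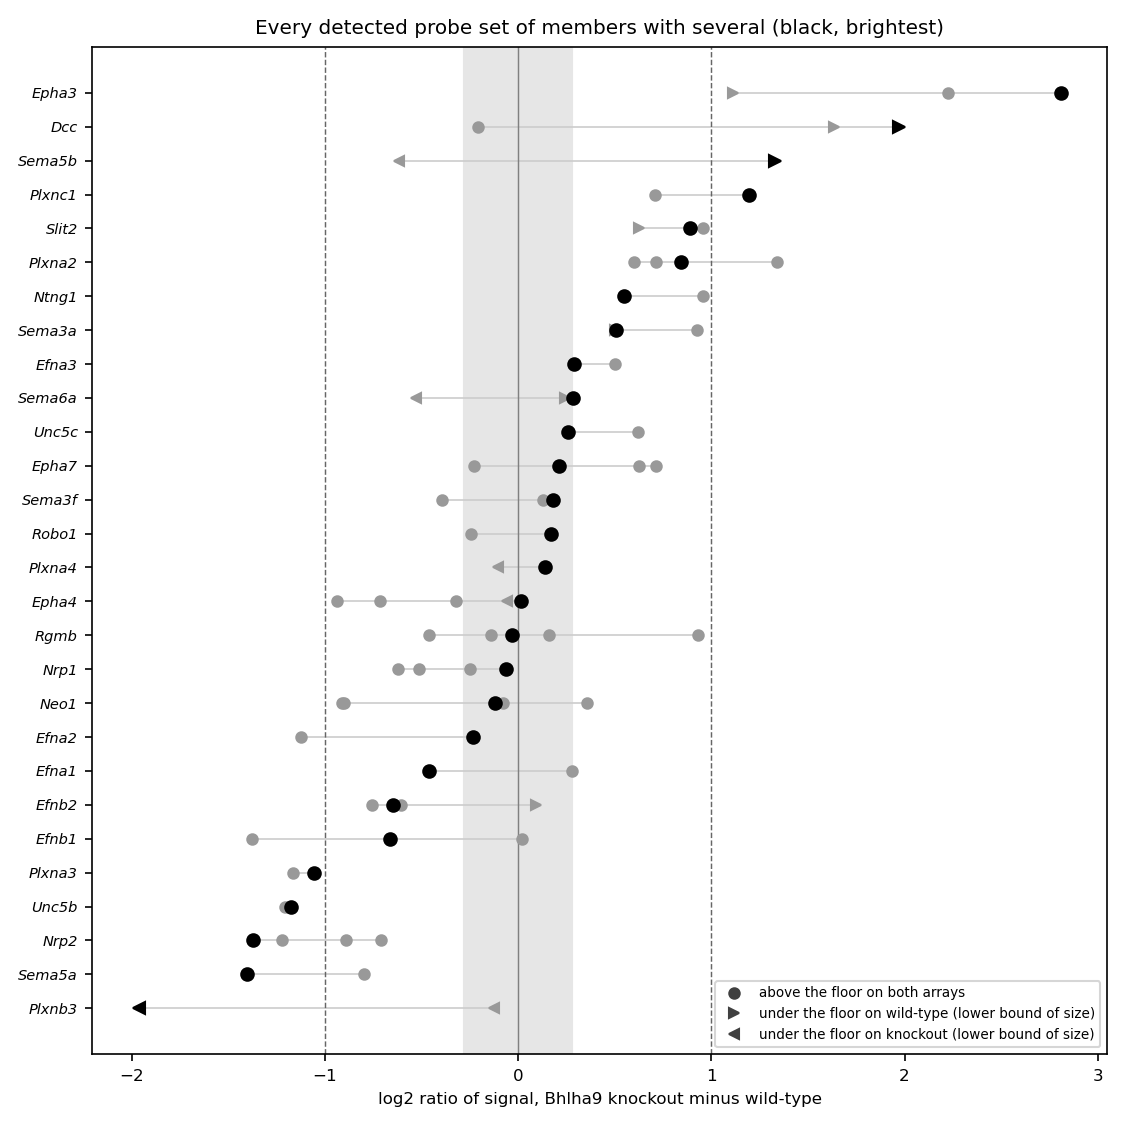
Log2 ratio, knockout minus wild-type, of every detected probe set of the described members that have more than 1, with the brightest in black and the others in grey; the grey band is 1 SD of measurement error and dashed lines mark 2-fold. Epha3, Nrp2, Unc5b, Plxna2 and Plxna3 lie on 1 side of zero throughout, whereas Sema5b, Neo1 and Rgmb spread across it.

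A list of signalling genes below these receptors, which also holds the reelin receptors and the membrane protease Adam10, was read beside them. Of its 41 detected genes, 1 passed 2-fold upward and 1 downward, near the shares over all detected genes, 4.15% and 2.65%, and the median log2 ratio was -0.04 over the 40 detected on both arrays. Dpysl5, a collapsin response mediator of early neurons, read 103 on the knockout and 47.6 on the wild-type array, a ratio of 1.12. Its relative Crmp1 was lower, at 895 against 1876, a ratio of -1.07. Gap43, a growth cone protein, was within the error at 1096 and 984.

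A list of adhesion co-receptors and other guidance ligands was read in the same way. Past 2-fold were 6 of its 27 detected genes, all higher, against 4.15% higher and 2.65% lower among all detected genes, with a median log2 ratio of 0.48 over the 24 detected on both arrays. Ret, the receptor of GDNF in motor and enteric neurons, read 256 on the knockout and 51.5 on the wild-type array, a ratio of 2.32. Gdnf, its ligand, read 169 on the knockout against 40.3 in wild-type, which is under the floor, so it was higher by at least 4.09-fold. The axonal adhesion genes Nrcam and Chl1 had ratios of 1.98 and 1.95, from wild-type signals of 42.5 and 41.4 just above the floor. Alcam and the neurotrophin receptor gene Ntrk2 had ratios of 1.04 and 1.10, whereas L1cam, another axonal adhesion gene, was at -0.85.

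**Figure D4:**
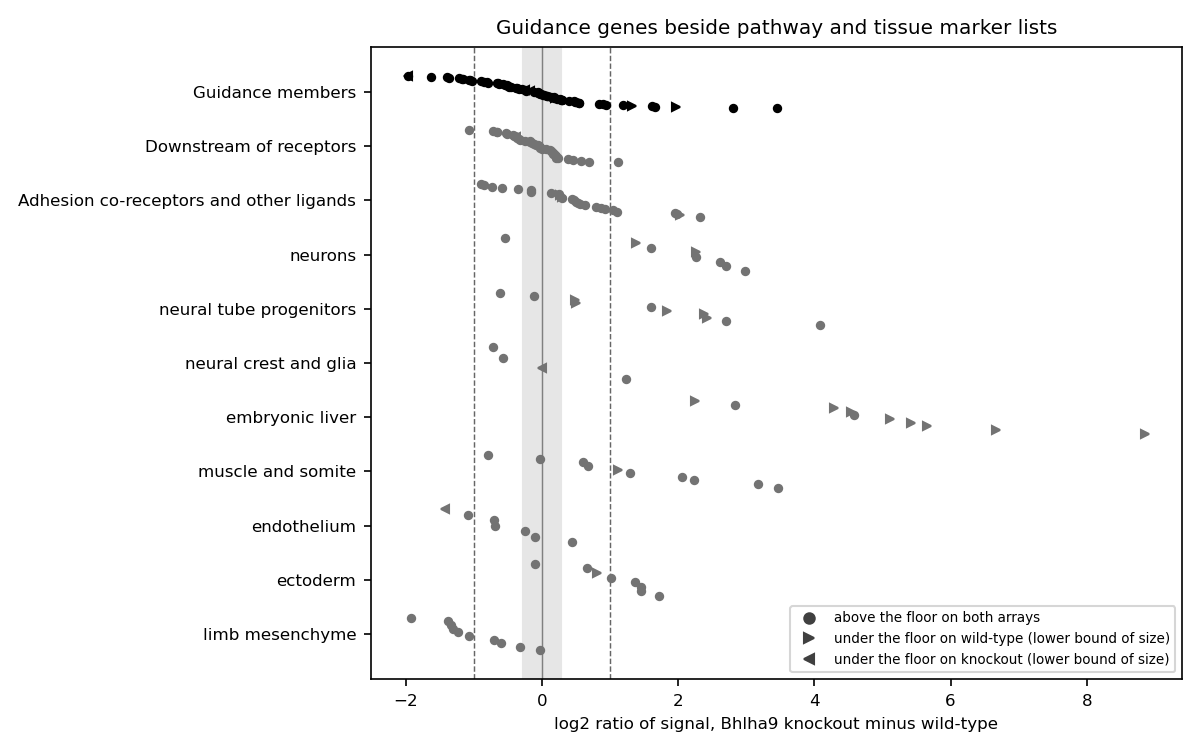
Log2 ratio, knockout minus wild-type, of each detected gene of the guidance families (top, black) and of the pathway and tissue marker lists (grey), with 2-fold dashed, 1 SD of error shaded and bounds as triangles. Neuron and liver markers lie mostly to the right and limb mesenchyme markers to the left, while guidance genes run from -1.97 to 3.45.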

How the data were processed

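RNA of 1 Bhlha9 knockout and 1 wild-type limb bud sample was read on Affymetrix arrays. The deposited values are signal intensities on a linear scale, which the authors summarised with MAS 5.0, per the series' design text, and the 2% trimmed mean of both arrays was 500.0. The sources used here do not give the scaling target or software version. MAS 5.0 scales each array on its own, so a difference in RNA composition shifts all other genes slightly, and signals near zero are noisy.

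Of 45101 probe sets, 64 controls were set aside, and 34945 of the remaining 45037 carried a single gene symbol in the platform annotation. Entrez identifiers matched 34741 of these to RefSeq genes of GRCm38.p6 with 0 renamed, while 932 had several symbols and 9160 none, and neither kind was used. No probe set with several symbols held a member. Each gene was read from its single-symbol probe set of highest mean signal. Signals under the 40th percentile of non-control probe sets were raised to it, then log2 was taken. Members past 2-fold were counted beside all genes, with no p-value.

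The members, the lists and the alternatives were chosen with earlier results of these data known. Genes described individually were those at least 2-fold apart, the 3 of each family with the largest absolute ratio, those whose probe sets lay beyond the error in opposite directions, and a set known from limb innervation, muscle precursors or vessels. Vldlr, Lrp8, Dab1, Gap43, L1cam, Dcx, Pecam1, Cdh5, Cldn5, Tek, Emcn, Krt8, Prrx1, Hoxd13 and Adam10, from outside the families, and members given to complete a family, such as Sema3b, Sema3e and Sema3g, were chosen with their values in view. Alternatives covered scaling, floor, choice of probe set and fold threshold. The steps were tested on simulated data. Python 3.11.15 was used with numpy 2.4.6, pandas 2.3.3, scipy 1.17.1, statsmodels 0.14.6 and matplotlib 3.10.9.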

Additional observations from a re-analysis of the deposited data

How the results depend on the processing

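The median ratio of the guidance genes detected on both arrays was negative under every alternative run, from -0.23 to -0.05. The number at least 2-fold higher, 7 as reported, became 11 with the floor at the 20th percentile, 4 at the 60th and 3 when all probe sets of a gene were averaged. The number at least 2-fold lower, 11 as reported, rose to 14 at the 20th percentile floor and fell to 6 at the 60th. It fell to 7 when a pseudocount of 32 replaced the floor, and to 7 on averaging. At a threshold of 1.5-fold, 10 members were higher and 18 lower, and at 3-fold 5 were higher and 3 lower. Averaging counts probe sets under the floor on both arrays as unchanged, which pulls ratios to zero. Counts over all genes moved the same way as member counts with the floor at the 20th or 60th percentile and on averaging. Those moves are thus not particular to guidance genes. With the pseudocount, which reads every gene whether detected or not, counts over all genes rose while member counts fell. As reported, 543 of 13088 genes were higher and 347 lower. Lowering the floor to the 20th percentile gave 1860 higher and 1365 lower of 16522 genes. Raising it to the 60th gave 160 and 157 of 9742. Averaging gave 349 and 250 of 13110, and the pseudocount 628 and 362 of 18193. Of the 18 genes at least 2-fold apart, 5 were so under each of the 8 alternatives to scaling, floor and probe set, namely Reln, Epha3, Nrp2, Sema4c and Unc5b. Dcc had a bound of -0.060 with the floor at the 60th percentile, where its knockout signal barely cleared the floor. Ratios of genes with signals near the floor, such as Epha1, Sema6c and Sema5b, are limited by signal over background. No paired analysis was possible because each genotype has 1 array.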
